A study of Mus musculus with 13 samples.

Results

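The Oas family was examined in the RNA of sorted brain myeloid cells from PS2APP mice with and without Trem2. The members were 8 genes picked by name, Oas1a, Oas1b, Oas1c, Oas1g, Oas2, Oas3, Oasl1 and Oasl2, out of 52636 genes listed for each mouse. They were chosen with earlier results of the same comparison known, so their differences between the genotypes are given below as a description, with log2 fold changes and standard errors but no p-value. Both groups carried the PS2APP transgenes, which encode human presenilin 2 and amyloid precursor protein with familial Alzheimer's disease mutations. The transgenes cause β-amyloid plaques to form. PS2APP;Trem2wt mice (n = 7, 5 females and 2 males) had intact Trem2, a lipid-sensing receptor of microglia, and PS2APP;Trem2ko mice (n = 6, 5 females and 1 male) carried a null Trem2 allele that was made in C57BL/6N and bred into PS2APP animals on C57BL/6J. The mice were 14 to 15 months old, and littermates came from breeders homozygous for the transgene and heterozygous for the null allele. Myeloid cells of cortex and hippocampus were sorted from each mouse as CD11b+, CD45+, Ccr2- and Ly6g- cells, a gate that the study describes as mostly microglia with some perivascular macrophages. Mice were generally taken from perfusion to sorting in pairs with 1 animal of each genotype, but the labels do not say which mice formed a pair, and the fits carry no term for it.

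Oligoadenylate synthetases are enzymes switched on by double-stranded RNA, a sign of viral infection. They join adenylates into short chains, called 2-5A, that serve as a signal of antiviral defence inside the cell. Type I interferon raises the transcription of most of these genes, which makes them common readouts of interferon signalling in microglia. Oas1, Oas2 and Oas3 proteins carry different numbers of the same enzyme unit, while the Oasl proteins carry ubiquitin-like domains. In the mouse the Oas1 gene has been copied many times, and Oas1b is known for a truncated form in common laboratory strains that goes with susceptibility to flaviviruses. The annotation accordingly lists Oas1b as a polymorphic pseudogene.

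Each mouse had between 26120961 and 120569609 counts, which put 3 counts, the limit taken for detection, at 0.0249 to 0.115 CPM (counts scaled to a common library size). This limit covers counting error only. The median was 35201380 counts in PS2APP;Trem2wt and 55371726 in PS2APP;Trem2ko mice. Read numbers given below are not scaled for this difference in depth. Levels are given as nRPKM, that is, RPKM scaled between mice by size factors. For Trem2 it was between 818 and 1244 in PS2APP;Trem2wt mice and between 0.393 and 2.29 in PS2APP;Trem2ko mice, in accord with the labels. Microglia markers summed to 13745 to 16625 nRPKM in PS2APP;Trem2wt mice and 14072 to 15899 in PS2APP;Trem2ko mice. The 6 oligodendrocyte markers summed to at most 38.8 nRPKM in any mouse, and the 6 neuron markers had a median sum of 5.28 in PS2APP;Trem2wt and 7.92 in PS2APP;Trem2ko mice. Neutrophil markers summed to 14.9 to 265 nRPKM in PS2APP;Trem2wt and 0.143 to 46.3 in PS2APP;Trem2ko mice.

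All 8 members lie on chromosome 5 (GRCm38, GENCODE M21). The Oas1, Oas2 and Oas3 genes lie between 120730333 and 120921652, and Oasl2 and Oasl1 lie next to each other between 114896936 and 114937915. Promoter sequences from RefSeq (GRCm38.p6) were matched for 6 of the 8 members, and Oas1b and Oas2 had no entry in the table used. The 120 bases before each start are printed 5′ to 3′ on the strand of the gene. Capitals mark matches to GAAANNGAAA, the core of the element bound by interferon-activated factors, searched on both strands, with overlapping matches merged into 1 run.
Oas1a, chr5:120907526-120907645, minus strand: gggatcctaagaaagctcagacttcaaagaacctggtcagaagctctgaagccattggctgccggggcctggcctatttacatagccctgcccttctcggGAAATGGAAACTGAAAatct
Oas1g, chr5:120887614-120887733, minus strand: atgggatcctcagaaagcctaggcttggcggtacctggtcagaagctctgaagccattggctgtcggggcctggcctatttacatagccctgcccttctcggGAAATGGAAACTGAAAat
Oas1c, chr5:120812515-120812634, minus strand: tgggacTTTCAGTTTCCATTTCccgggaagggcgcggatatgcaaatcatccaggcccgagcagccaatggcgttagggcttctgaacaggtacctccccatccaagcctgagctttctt
Oas3, chr5:120777660-120777779, minus strand: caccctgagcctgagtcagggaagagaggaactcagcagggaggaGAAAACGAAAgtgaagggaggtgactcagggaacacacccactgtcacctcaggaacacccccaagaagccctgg
Oasl1, chr5:114923120-114923239, plus strand: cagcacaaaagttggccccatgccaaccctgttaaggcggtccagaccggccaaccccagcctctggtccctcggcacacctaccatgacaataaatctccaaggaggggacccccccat
Oasl2, chr5:114896814-114896933, plus strand: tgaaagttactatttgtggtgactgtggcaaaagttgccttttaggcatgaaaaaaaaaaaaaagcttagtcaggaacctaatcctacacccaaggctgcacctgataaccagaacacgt

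The motif was found in 4 of these 6 stretches, against 1.22% of the 120-base stretches of all 32851 promoters in the table. Oas1a and Oas1g held the same 16-base run, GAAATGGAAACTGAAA, which ended 4 bases before the Oas1a start and 2 bases before the Oas1g start. Oas1c held this run as its reverse complement. The Oas1c stretch fills the 120 bases between Oas1c and its divergent neighbour Oas1b, and the run lies 6 bases from the start of Oas1b. Besides these 3 members, the 16-base run was found in the promoters of Apol9a and Apol9b. The Oas3 run was shorter and lay 65 bases before its start. These letters were not in the stretches of Oasl1 and Oasl2. Oas1a, Oas1g and Oas1c are copies of the same gene, so their runs are not independent.

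Oas2 had the largest difference between the genotypes among the members. PS2APP;Trem2wt microglia had 0.810 ± 0.516 nRPKM of Oas2 (SD, n = 7), with a lowest value of 0.362, a median of 0.533 and a highest value of 1.58. PS2APP;Trem2ko microglia had 3.40 ± 2.08 (SD, n = 6), with a lowest value of 1.27, a median of 2.74 and a highest value of 6.33. All PS2APP;Trem2ko mice but the single male were above every PS2APP;Trem2wt mouse, and the male overlapped the 2 highest PS2APP;Trem2wt mice. The log2 fold change was 2.06 (SE 0.43), with 70 to 646 reads behind the PS2APP;Trem2wt values and 575 to 2260 behind the PS2APP;Trem2ko values. Oas2 (ENSMUSG00000032690, 120730333 to 120749853, minus strand) shared none of its 50-base transcript words with another gene, 50 bases being the read length.

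Oas1b had the next largest difference. PS2APP;Trem2wt microglia had 0.536 ± 0.267 nRPKM of Oas1b (SD, n = 7), with a lowest value of 0.227, a median of 0.594 and a highest value of 0.911. PS2APP;Trem2ko microglia had 1.42 ± 0.55 (SD, n = 6), with a lowest value of 0.817, a median of 1.22 and a highest value of 2.39. Again all PS2APP;Trem2ko mice but the male were above every PS2APP;Trem2wt mouse, and the male was below 1 of them. The log2 fold change was 1.38 (SE 0.33), on 16 to 177 reads per PS2APP;Trem2wt mouse and 130 to 396 reads per PS2APP;Trem2ko mouse. Oas1b (ENSMUSG00000029605, 120812635 to 120824163, plus strand) shared 2.98% of its transcript words with other genes.

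Among the remaining Oas1 copies the genotypes overlapped widely. Oas1a (ENSMUSG00000052776, 120896256 to 120907521, minus strand), the most abundant of the Oas1 copies, had 4.80 ± 1.72 nRPKM (SD, n = 7) in PS2APP;Trem2wt microglia, with a median of 4.66 and single mice between 3.26 and 8.33. It had 6.25 ± 3.11 (SD, n = 6) in PS2APP;Trem2ko microglia, with a median of 4.63 and single mice between 3.78 and 11.3. The medians were thus nearly equal, and the higher mean came from 2 mice. The log2 fold change was 0.38 (SE 0.28). Oas1g (ENSMUSG00000066861, 120876142 to 120887613, minus strand) was between 0.210 and 1.63 nRPKM in PS2APP;Trem2wt mice (median 0.375) and between 0.240 and 1.59 in PS2APP;Trem2ko mice (median 0.672), with a log2 fold change of 0.52 (SE 0.51). Oas1a and Oas1g are related copies that share long stretches of sequence, as their promoters above also show. Of the Oas1a transcript words 57.6% occur in Oas1g, and of the Oas1g words 45.2% occur in Oas1a, so their levels are uncertain where only unique reads were counted. Oas1c (ENSMUSG00000001166, 120800194 to 120812514, minus strand) was between 0.294 and 0.931 nRPKM in PS2APP;Trem2wt mice (median 0.451) and between 0.314 and 0.987 in PS2APP;Trem2ko mice (median 0.764), with a log2 fold change of 0.35 (SE 0.31). It shared 15.1% of its words with other genes, most of all with Gm43069.

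Oas3 (ENSMUSG00000032661, 120753098 to 120777661, minus strand), which makes the longest protein of the family, was between 0.136 and 2.20 nRPKM in PS2APP;Trem2wt mice (median 0.384) and between 0.282 and 2.52 in PS2APP;Trem2ko mice (median 0.630). Its log2 fold change was 0.67 (SE 0.65), a difference about as large as its error. Each genotype held 1 mouse at above 2 nRPKM and at least 1 mouse at below 0.3 nRPKM.

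The genotypes also overlapped for the pair of Oasl genes. Oasl2 (ENSMUSG00000029561, 114896936 to 114912234, plus strand) was the most abundant member, at 14.4 ± 7.4 nRPKM in PS2APP;Trem2wt (SD, n = 7) and 17.9 ± 11.3 in PS2APP;Trem2ko microglia (SD, n = 6). The lowest, median and highest Oasl2 values were 8.12, 12.2 and 30.2 in PS2APP;Trem2wt mice and 8.31, 13.1 and 36.0 in PS2APP;Trem2ko mice, and the log2 fold change was 0.32 (SE 0.37). Oasl1 (ENSMUSG00000041827, 114923240 to 114937915, plus strand), known to hold back translation of the interferon regulator Irf7, was between 1.07 and 5.36 nRPKM in PS2APP;Trem2wt mice (median 1.79) and between 1.41 and 7.41 in PS2APP;Trem2ko mice (median 2.32). Its log2 fold change was 0.76 (SE 0.46).

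**Figure D1:**
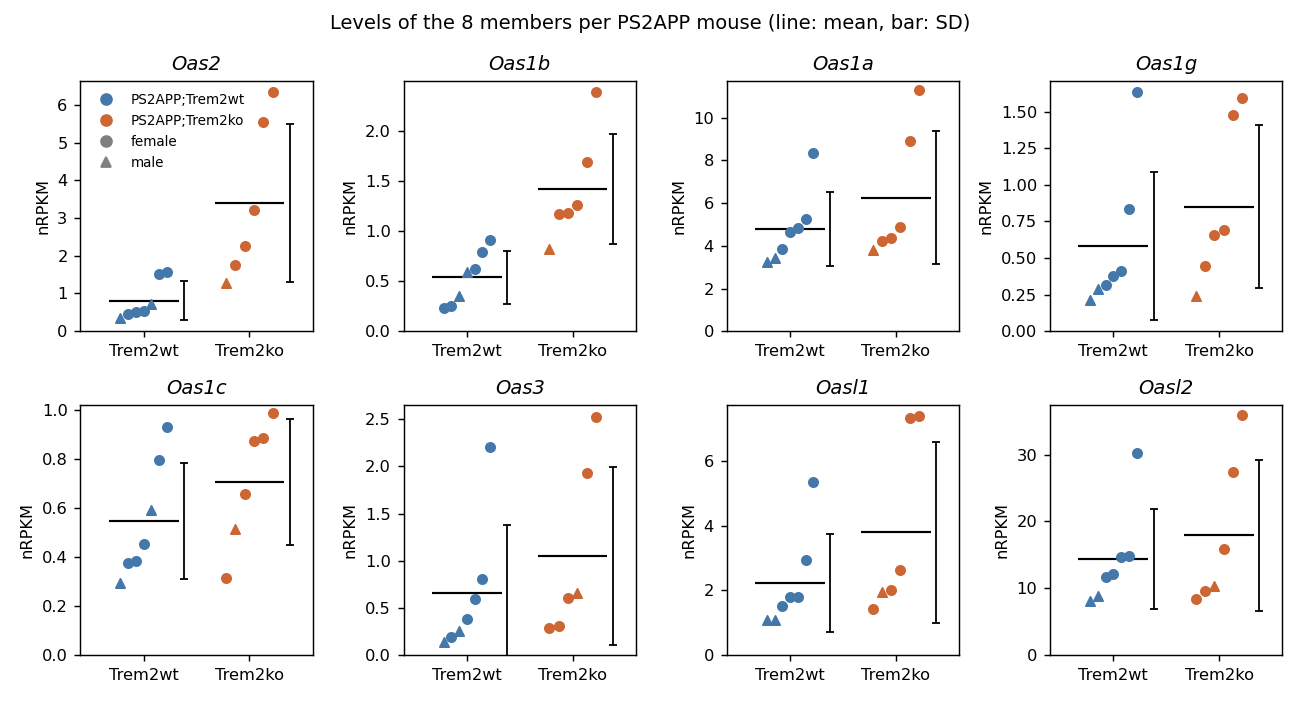
Level of each of the 8 members in nRPKM (linear axes starting at 0, 1 panel per gene), with 1 point per mouse, the line at the mean and the bar the SD (cut at 0 for Oas3 in PS2APP;Trem2wt). For Oas2 and Oas1b, 5 of 6 PS2APP;Trem2ko mice sit above every PS2APP;Trem2wt mouse, while for the other 6 genes the genotypes overlap and a few female mice stand high in each.

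All 8 members passed the filter on low counts, had counts in all 13 mice and had a positive log2 fold change, as did 50.7% of the 17086 genes tested. Their median log2 fold change was 0.60, beside 0.0039 over all genes tested. Of the 8 members, 2 (Oas2 and Oas1b) passed an adjusted p of 0.05 and a 2-fold change upwards in edgeR's quasi-likelihood test, beside 0.0527% of all genes. Nothing is read from this count, since the same contrast stood behind the choice of members. With voom+limma, the tool of the study, 0 of 8 members passed, and 2 members had an unadjusted p under 0.05 with each tool, beside 7.29% of all genes that had one and were higher with edgeR. Oas2 passed whichever single mouse was left out, with a log2 fold change of 1.78 to 2.32, while Oas1b passed without PS2APP;Trem2ko mouse 5 or without PS2APP;Trem2wt mouse 3 and no longer passed without any other single mouse. None of the 8 members had values that did not overlap at all between the genotypes, where 0.421% of all genes were without overlap and higher in PS2APP;Trem2ko mice and 1.64% without overlap in either direction. In a bulk sample, more RNA of a gene per cell and a larger share of cells with the gene cannot be told apart.

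On the per-length scale of nRPKM the order of the levels was partly the same in both genotypes. By median, Oasl2 was highest and Oas1a next in both, and within every mouse Oasl2 was at least 1.91 times Oas1a. In PS2APP;Trem2wt microglia they were followed by Oasl1 at 1.79, and the other 5 members had medians between 0.375 and 0.594 that did not differ beyond their spread. In PS2APP;Trem2ko microglia Oas2 came next, at 2.74, close to Oasl1 at 2.32 and within its spread. Oas1b followed at 1.22, and Oas1c, Oas1g and Oas3 came last with medians between 0.630 and 0.764, again within their spread.

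The members varied far more between mice than most genes. The SD of log2 CPM over PS2APP;Trem2wt mice was between 0.46 and 1.35 for the members, beside a median of 0.27 over all genes tested, and over PS2APP;Trem2ko mice it was between 0.53 and 1.31, beside 0.26. The mice that were high for 1 member tended to be high for others. A family level was computed for each mouse as the mean over the 8 members of log2 CPM minus the gene's mean over the 13 mice. It was 0.96 in PS2APP;Trem2wt mouse 3, 1.55 in PS2APP;Trem2ko mouse 2 and 1.17 in PS2APP;Trem2ko mouse 3, all females. The other 10 mice were between −0.99 and 0.41. The family level differed by 0.81 between the genotypes (mean −0.37, SD 0.71, n = 7 in PS2APP;Trem2wt; mean 0.44, SD 0.76, n = 6 in PS2APP;Trem2ko), and 2 PS2APP;Trem2ko mice were above every PS2APP;Trem2wt mouse. Over the 6 members other than Oas2 and Oas1b the difference was 0.49.

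Markers of other cells were set beside this pattern. The lymphocyte and natural killer cell markers summed to 4.41 nRPKM in PS2APP;Trem2wt mouse 3, 5.99 in PS2APP;Trem2ko mouse 2 and 3.34 in PS2APP;Trem2ko mouse 3, the 3 highest sums of the 13 mice. This list as a whole was between 0.637 and 4.41 in PS2APP;Trem2wt and between 0.827 and 5.99 in PS2APP;Trem2ko mice, with none of its 8 markers at 0 in every mouse and 5 of them passing the filter. The plasmacytoid dendritic cell list was between 487 and 613 nRPKM in PS2APP;Trem2wt mice and between 485 and 702 in PS2APP;Trem2ko mice. The same 3 mice were at 613, 702 and 622 nRPKM, and PS2APP;Trem2ko mouse 1 was at 621. The level of this list came mostly from Siglech, which microglia also express, it holds the interferon-induced Bst2, and Klk1 was at 0 in every mouse. Astrocyte markers summed to 63.1 to 82.0 nRPKM in PS2APP;Trem2wt and 68.0 to 87.8 in PS2APP;Trem2ko mice. The 3 mice were between 82.0 and 86.3, and the only mouse above them was PS2APP;Trem2ko mouse 6 at 87.8. Monocyte markers summed to 2.41 to 23.0 and 3.71 to 19.8 nRPKM in the 2 genotypes, border macrophage markers to 11.5 to 33.8 and 19.2 to 49.1, and endothelial markers to 8.02 to 23.1 and 8.45 to 14.7, and in none of these lists were the 3 mice the 3 highest. The sort kept CD11b+ and CD45+ cells and left out Ccr2+ and Ly6g+ cells. The part of other cells in the result was not tested.

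Over the 28 pairs of members, Pearson's r of log2 CPM, centred within each genotype over the 13 mice, was between 0.27 and 0.96 with a median of 0.74. The pairs share libraries, and the values are a description. Oas1a and Oasl2, which lie in different clusters, had the highest r. Oas1b and Oas1c followed the others least, with a median r of 0.52 and 0.49 to the remaining members.

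Each member was then compared with 24 interferon effector genes outside the family, such as Ifit1, Isg15 and Rsad2, within each genotype. In PS2APP;Trem2wt mice, r with the mean centred level of these genes was between 0.51 and 0.99, and in PS2APP;Trem2ko mice it was between 0.25 and 0.98. After Benjamini-Hochberg adjustment over the 16 relations, 6 of 8 members passed 0.05 in each genotype by the two-sided exact permutation test on Pearson's r, and Oas1b and Oas1c passed in neither. The permutations did not keep the sexes apart. In PS2APP;Trem2wt mice the males, mice 2 and 7, had the lowest effector levels, −0.54 and −0.77, and the part of sex in r was not tested. For Oas1a in PS2APP;Trem2wt mice, r was 0.99 (exact permutation p = 0.0004, adjusted 0.0063, n = 7) and Spearman's rho was 0.96 (adjusted permutation p = 0.0444). For Oas2, r was 0.77 in PS2APP;Trem2wt mice (rho 0.79, exact permutation p = 0.0313, adjusted 0.0418, n = 7) and 0.93 in PS2APP;Trem2ko mice (rho 0.94, exact permutation p = 0.0056, adjusted 0.0178, n = 6). Oas1a in PS2APP;Trem2wt mice was the 1 relation of the 16 that also passed by rho, whose adjusted permutation p was between 0.0889 and 0.919 for the rest. The 2 mice farthest from the median effector level were mice 3 and 7 in PS2APP;Trem2wt and mice 2 and 3 in PS2APP;Trem2ko. Without them r was between 0.40 and 0.97 and between −0.12 and 0.93. For Oas2 it fell to 0.40 in PS2APP;Trem2wt and was 0.73 in PS2APP;Trem2ko mice, so the relation of Oas2 in PS2APP;Trem2wt mice rests largely on those 2 mice. In the PS2APP;Trem2ko group these 2 mice stood apart from the other 4 in effector level, so r there mostly describes this split, and within the other 4 the relation cannot be tested.

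**Figure D2:**
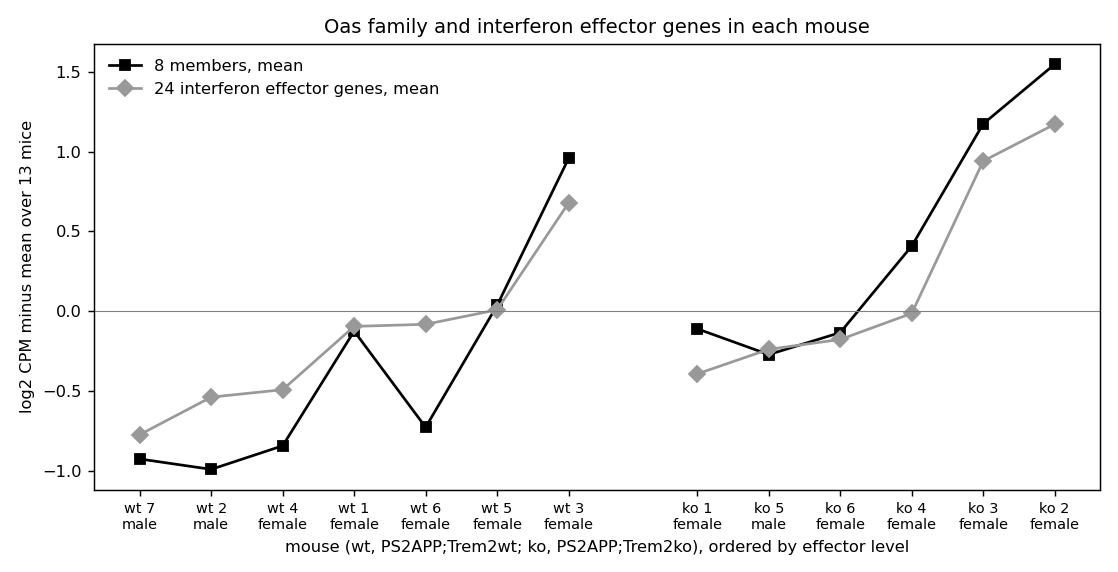
Mean level of the 8 members (squares) and of the 24 interferon effector genes (diamonds) in each mouse, as log2 CPM minus the mean over the 13 mice, ordered within each genotype by the effector genes. The highest mouse of PS2APP;Trem2wt (0.96 for the members) and the 2 highest of PS2APP;Trem2ko (1.17 and 1.55) are high for both sets of genes.

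Leaving the members out, the 10 genes whose pattern over the 13 mice, centred within genotype, was most like the family level had r from 0.98 to 0.94, and they included, from the highest r down, Ifit3, Iigp1, Usp18, Gbp6, Zbp1, H2-T23, Ifit2, B2m and Ifi44. None of these 10 passed an adjusted p of 0.05 between the genotypes in edgeR's test. Their log2 fold changes were between −0.04 for B2m, the light chain of MHC class I, and 1.42 for Gbp6, a guanylate-binding protein. Oas1a (r 0.97) and Oasl2 (r 0.96) would stand among these 10 if members were counted. Oas2 itself had an r of 0.87 with the family level, Oas1b 0.68 and Oas1c 0.59, although all of them are part of that level. Of the members with the promoter motif, Oas1a was at 0.97, Oas3 at 0.93, Oas1g at 0.92 and Oas1c at 0.59. Without the motif, Oasl2 was at 0.96 and Oasl1 at 0.94. A link between the motif and the shared variation was not tested.

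Ratios within a mouse show how Oas2 differed from Oasl2 and Oas1a. Oas2 and the ratios below were picked out after their values were seen, and they are a description. Oas2 per Oasl2, a ratio of nRPKM values, was 0.0575 ± 0.0273 (SD, n = 7) in PS2APP;Trem2wt mice, with a lowest value of 0.0335, a median of 0.0456 and a highest value of 0.104. It was 0.192 ± 0.039 (SD, n = 6) in PS2APP;Trem2ko mice, with a lowest value of 0.123, a median of 0.202 and a highest value of 0.237. The genotypes did not overlap. Against Oas1a, Oas2 was between 0.103 and 0.290 in PS2APP;Trem2wt mice and between 0.335 and 0.653 in PS2APP;Trem2ko mice, again without overlap. Against every other member the ratios of Oas2 overlapped between the genotypes. For example, PS2APP;Trem2wt mouse 2 had 0.714 nRPKM of Oas2 and 1.07 of Oasl1, and PS2APP;Trem2ko mouse 5 had 1.27 and 1.95. Of all genes tested, 0.0293% had a ratio to Oasl2 that was higher in PS2APP;Trem2ko mice without overlap, and the share was 0.0293% for the ratio to Oas1a. PS2APP;Trem2wt mouse 3 had 1.58 nRPKM of Oas2 and 30.2 of Oasl2, while PS2APP;Trem2ko mouse 2 had 6.33 and 36.0 and PS2APP;Trem2ko mouse 3 had 5.54 and 27.4. These mice thus had similar levels of Oasl2 and different levels of Oas2. Oas1b per Oasl2 overlapped, at 0.0187 to 0.0675 in PS2APP;Trem2wt and 0.0430 to 0.177 in PS2APP;Trem2ko mice.

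**Figure D3:**
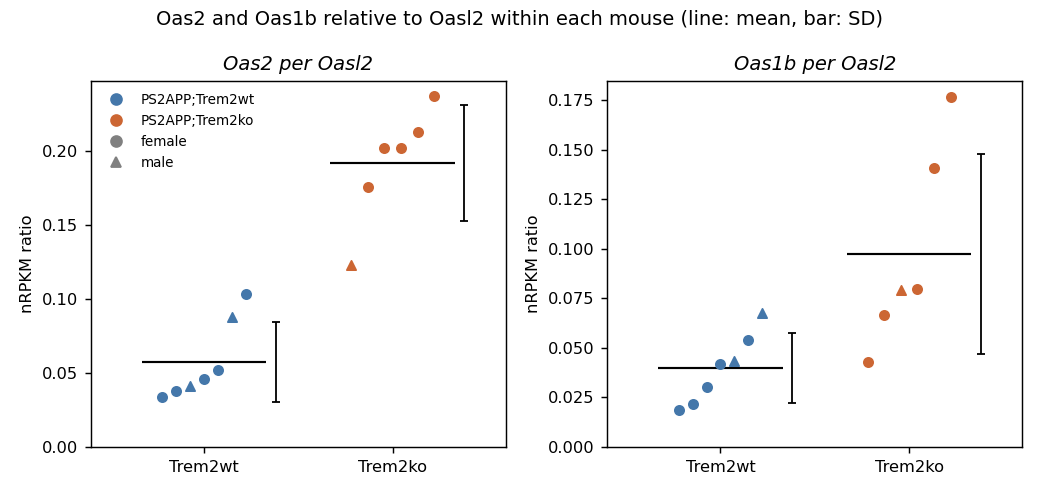
Ratio of the nRPKM of Oas2 (left) and Oas1b (right) to that of Oasl2 in each mouse, on linear axes from 0, with the line at the mean and the bar the SD. For Oas2 the highest PS2APP;Trem2wt mouse is at 0.104 and the lowest PS2APP;Trem2ko mouse at 0.123, while for Oas1b the genotypes overlap.

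Sex was a contrast that the choice of members did not use. In a fit with genotype and sex, all 8 members had lower values in the 3 males than in the 10 females, with log2 fold changes (male minus female) from −0.43 for Oas1c to −1.69 for Oas1g, beside 49.4% of all genes with a value below 0. Oas1g was 0.246 nRPKM on average in males and 0.843 in females, and Oasl2 was 9.09 and 18.1. No member passed the correction over all genes, with an adjusted p in edgeR's test between 0.713 and 0.832, and 0.0234% of all genes passed. At an unadjusted p under 0.05 the count was 5 of 8 members with edgeR, 5 with DESeq2 and 3 with voom+limma, each lower in males, beside 3.49%, 4.88% and 4.94% of all genes that were lower. Of the 53 genes tested in the 4 lists described below, 48 were likewise lower in males with edgeR, and 16 had an unadjusted p under 0.05, with no adjusted p under 0.713. Genes that vary together over the same mice, as most members did, are not independent in such counts. Of the 3 males 1 was PS2APP;Trem2ko, and the 3 mice of highest family level were all female. In females alone the genotype log2 fold change of Oas2 was 2.03 (SE 0.45) and that of Oas1b was 1.43 (SE 0.38), and Oas1b then no longer passed both cutoffs.

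**Figure D4:**
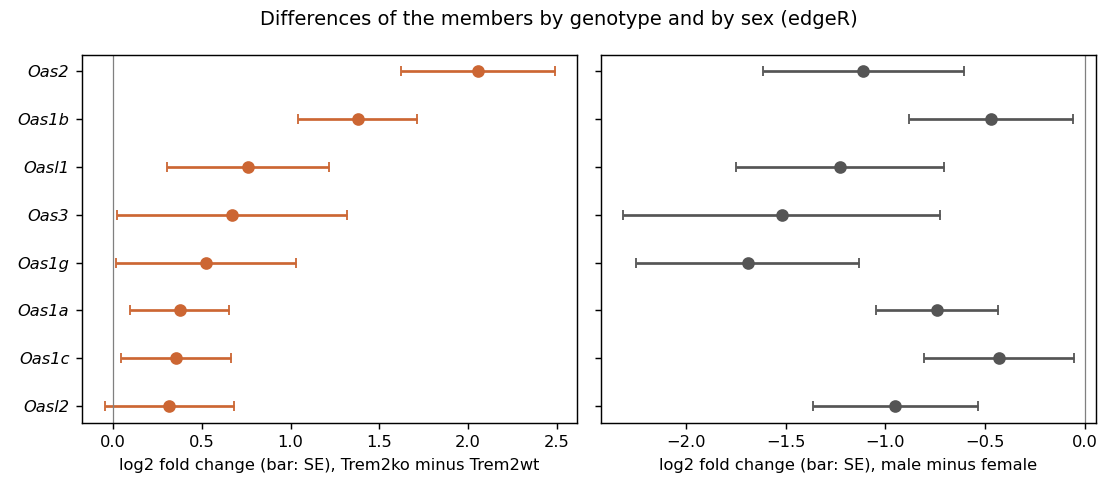
Log2 fold change of each member (point) with its SE (bar) in edgeR, for PS2APP;Trem2ko minus PS2APP;Trem2wt (left) and for male minus female mice in a fit with genotype (right). By genotype all points lie above 0, from 0.32 for Oasl2 to 2.06 for Oas2, and by sex all lie below 0, from −0.43 to −1.69.

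The other genes of the 2-5A pathway that are described here held 1 that changed. Akap7, whose protein is known to have a 2-5A-degrading phosphodiesterase activity, was between 2.24 and 3.51 nRPKM in PS2APP;Trem2wt mice (median 2.66) and between 3.15 and 4.77 in PS2APP;Trem2ko mice (median 3.77). It was higher by 0.48 on the log2 scale (SE 0.12, adjusted p = 0.0480 in edgeR's test), under the 2-fold cutoff, while 2.04% of all genes had an adjusted p of 0.05 or less. The adjusted p was between 0.0049 and 0.120 over the alternatives, and 3 of the 13 fits that left out 1 mouse kept it at 0.05 or less. Pde12, another 2-5A phosphodiesterase, differed by 0.04 on that scale (SE 0.08, adjusted p = 0.890), and Abce1, an ATP-binding protein known in this pathway, by −0.09 (SE 0.08, adjusted p = 0.623). Of the same list, Oas1d, Oas1e, Oas1f and Oas1h had 0 to 3 counts in any mouse and did not pass the filter. They lie among the members of the Oas1 cluster, and their transcripts were at or under the limit of detection.

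In the 3 further lists, which hold the double-stranded RNA sensors, the interferon pathway and the interferon effector genes, no gene passed an adjusted p of 0.05 with edgeR. Over all 4 lists 0 of 53 tested genes passed both cutoffs, beside 0.743% of all genes, and 10 had an unadjusted p under 0.05 with edgeR, 5 with voom+limma and 11 with DESeq2, beside 14.8%, 16.8% and 16.3% of all genes. With DESeq2, Mx1 (adjusted p = 0.0431) and Trim30a (adjusted p = 0.0478) also had an adjusted p of 0.05 or less, under the 2-fold cutoff. All 9 sensors and partners had positive log2 fold changes, as did 50.7% of all genes, with a median of 0.13. Those with the smallest p were Trim25, a ubiquitin ligase of the sensor RIG-I (0.19, SE 0.09, adjusted p = 0.375), Eif2ak2, the double-stranded RNA kinase PKR (0.19, SE 0.10, adjusted p = 0.415), and Dhx58, a relative of RIG-I (0.26, SE 0.17, adjusted p = 0.523). Of the 16 genes of interferon ligand, receptors and signalling, 13 had positive and 3 negative log2 fold changes, with a median of 0.19. The transcription factor Irf3 was at 0.22 (SE 0.09, adjusted p = 0.252), the receptor chain Ifnar2 at −0.15 (SE 0.07, adjusted p = 0.321) and the interferon-induced factor Irf7 at 0.74 (SE 0.36, adjusted p = 0.358). Ifnb1, the gene of interferon β, was at most 0.491 nRPKM in PS2APP;Trem2wt and 0.769 in PS2APP;Trem2ko mice.

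The 24 effector genes had a median log2 fold change of 0.47, 21 of them positive and 3 negative, beside 50.7% of all genes with a positive value. Their mean centred level per mouse had a median of −0.095 in PS2APP;Trem2wt and −0.095 in PS2APP;Trem2ko mice. PS2APP;Trem2ko mice 2 and 3 were at 1.17 and 0.94, and the other PS2APP;Trem2ko mice were between −0.39 and −0.01. The smallest p were those of Trim30a (0.35, SE 0.11, adjusted p = 0.135), Mx1, a dynamin-like antiviral GTPase (0.90, SE 0.31, adjusted p = 0.169), and Parp14 (0.33, SE 0.12, adjusted p = 0.176). Mx1 was between 1.26 and 3.25 nRPKM in PS2APP;Trem2wt mice and between 1.98 and 7.10 in PS2APP;Trem2ko mice, and these ranges overlapped. The members' median of 0.60 stands beside this 0.47, and the difference between the lists was not tested.

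Genes near the loci were examined for a shift shared with the members. Within 1000000 bases of the Oas1, Oas2 and Oas3 cluster, 36 other genes were tested, with a median log2 fold change of −0.01 and a range from −1.18 to 0.53. The gene that passed both cutoffs, Gm43571 (121715109 to 121718206), was lower in PS2APP;Trem2ko mice, by −1.18 on the log2 scale (SE 0.18, adjusted p = 0.0021 in edgeR's test), as were 0.691% of all genes by both cutoffs. Around the Oasl pair, 49 genes were tested with a median of −0.06, and none passed, while 9 had an unadjusted p under 0.05 with edgeR, beside 14.8% of all genes and 4 of the 36 genes near the other cluster. The smallest p there were those of the ion channel gene Trpv4 (0.55, SE 0.14, adjusted p = 0.0628) and of Cox6a1, a subunit of cytochrome c oxidase (−0.37, SE 0.10, adjusted p = 0.0851). The highest log2 fold change of any neighbour was 0.61.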

How the data were processed

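RNA-Seq files of 13 mice were used, grouped by the genotype in their labels. The members and gene lists were chosen with earlier results of these data known. The paper states that low-quality, adapter and rRNA sequences were removed and reads of SMART-seq v4 libraries, a kit that to general knowledge does not mark strand, were aligned to GRCm38 with GSNAP, which is also named in the submitters' processing notes. Whether counting used strand is not given in the sources used here. The authors deposited, per mouse and Ensembl gene, counts of uniquely mapped reads, not normalized, and nRPKM, that is, RPKM scaled between mice by size factors. Names for 52403 of 52636 genes were taken from GENCODE M21, and 233 have none.

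Tests on counts were run in R 4.3.3 with edgeR 4.0.16 (filterByExpr by genotype, TMM, glmQLFit and glmQLFTest, no covariate), which tested 17086 genes, with Benjamini-Hochberg adjustment over all of them. Cutoffs were an adjusted p of 0.05 and a 2-fold change. The SE is the log2 fold change divided by the square root of F. Log2 CPM used a prior count of 2. Named genes are the members, genes of the 4 lists past the cutoffs or else the 3 of smallest p, the 10 genes most like the family level, and neighbours with an adjusted p of 0.05 or else the 2 of smallest p. Single genes that the rule or the marker lists would name are not reported here. Other genes were named after their values were seen. Correlations used exact permutation tests (Python 3.11.15, scipy 1.17.1). The alternatives tried were DESeq2 1.42.0 and voom with limma 3.58.1 as tools, limma on log2(nRPKM + 0.1) or log2(nRPKM + 1), scaling by RLE, a filter of 10 counts in 6 mice or none, a sex term, the females alone, no fold threshold, and each mouse left out in turn. The fits, the permutation test on Pearson's r and the ranking by likeness to the family level were first tested on simulated data. Dixon's test, used below, was not. Over 36 pairs of mice that share a genotype, counts differed by at least 19.6 times the sampling noise (chi-square per degree of freedom), so no library was counted as deposited more than once.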

Additional observations from a re-analysis of the deposited data

Results flagged for a closer look

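In each genotype the highest and the lowest mouse were compared with the other mice of the group by Dixon's test, for the members, the family level and the ratios of Oas2 and Oas1b to Oas1a, 22 groups in all, of which chance alone singles out about 1 in 20. Of these groups, 3 held a mouse far from the others. Oas1a (8.328 nRPKM), Oas3 (2.203 nRPKM) and Oasl2 (30.2 nRPKM) were highest in PS2APP;Trem2wt mouse 3, the female that also had the highest effector genes of its group, so these values are from a single animal and are not independent.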

How the results depend on the processing

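No paired analysis was possible because the labels give no replicate number or pair shared between the genotypes, although mice were generally handled in pairs of both genotypes. The count of members past both cutoffs was 2 and fell to 1 in females alone, with sex as a covariate, without a filter and with limma on log2(nRPKM + 1), and to 0 with voom+limma. Leaving out single mice gave 1 to 2. Over the 9 alternatives of tool, scaling, filter, sex and pseudocount, Oas2 passed in 8 and Oas1b in 4, and the cause was not tested. The direction of each member and of the family level, 0.587 to 1.03 with single mice left out, was kept except that Oasl2 reached −0.01 without PS2APP;Trem2ko mouse 2. Without PS2APP;Trem2wt mouse 3 and without PS2APP;Trem2ko mouse 2, the log2 fold change was 0.57 and 0.12 for Oas1a, 1.05 and 0.24 for Oas1g, 1.42 and 0.20 for Oas3, 1.16 and 0.45 for Oasl1, and 0.61 and −0.01 for Oasl2. No pathway gene passed both cutoffs, and without a fold threshold 1, Akap7, passed with edgeR and 3, Akap7, Mx1 and Trim30a, with DESeq2. Of the genes near the loci 1 passed, and 0 with limma on log2(nRPKM + 1). No member passed for sex in any fit. Most members had under 3 nRPKM, and 6 to 7 mice per genotype limit what differences could be seen.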
